A study of Mus musculus with 8 samples.

Results

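The genes described here are 52 hypothalamic neuropeptide genes that fall outside the somatostatin, opioid, oxytocin, vasopressin and arcuate feeding peptide systems. They comprise 22 peptide precursors, 29 receptors and 1 binding protein from 16 families, were chosen by gene symbol, and are 52 of the 24952 genes with any count in these libraries. They were measured by Flow-Seq, which is bulk RNA sequencing of fluorescence-sorted cells, in TN SST neurons, the somatostatin neurons of the tuberal nucleus (TN) of the mouse hypothalamus. All 8 mice were adult *Sst-Cre* heterozygotes (Ssttm2.1(cre)Zjh/J / +) on a C57BL/6J background, with the agent AAV2-flex-tdTomato injected on both sides into the TN. The groups were 4 females and 4 males, with 1 library per mouse pooling that mouse's sorted cells, and neither age nor estrous stage is given for these mice in the sources used here. Because Cre is expressed from the *Sst* locus and the virus was given to adult mice, red fluorescence marks cells in the injected area with Cre at or after injection, and no library of unsorted cells was analysed here.

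Neuropeptides are cut from larger precursor proteins at pairs of basic residues, stored in dense-core vesicles and released to act, often at a distance, on G-protein-coupled receptors of other neurons. A neuron usually makes several peptides beside a fast transmitter such as GABA, and it responds to many more, so precursors and receptors describe different sides of its signaling. In the hypothalamus these peptides are known for roles in feeding, energy use, stress, sleep and reproduction, and several of them are known to be regulated by gonadal steroids.

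Each library held between 7.83 and 17.6 estimated counts in units of 1000000. A count of 3, used as the limit of detection, corresponded to between 0.148 and 0.458 counts-per-million units (CPM, scaled between libraries by edgeR's TMM method). Such a limit accounts for counting error alone, because duplicate reads of 1 molecule were kept. Levels of different genes are compared below as transcripts-per-million values (TPM), which are per length, and the sexes are compared in CPM. *Sst* itself averaged 1188 TPM over the 8 mice. Summed over 8 neuron markers, TPM was between 1723 and 2389 in females and between 1271 and 1643 in males, with no overlap, and each of the 8 had a fitted log2 fold change toward females. Glial markers were also present: the 5 markers each of astrocytes, microglia and oligodendrocytes all had fitted log2 fold changes below 0, that is toward males, although the summed levels of each list overlapped between the sexes (for microglia 180 to 1048 TPM in females and 390 to 1889 TPM in males). None of these neuron and glial markers passed an adjusted p of 0.05 in edgeR, but DESeq2 called 4 of the 8 neuron markers higher in females, *Snap25*, *Syt1*, *Rbfox3* and *Syn1*, with log2 fold changes between 0.43 and 0.68 and no overlap of the sexes, and none of the glial markers. In bulk RNA fewer cells of a type and less RNA per cell cannot be told apart.

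The receptors were broadly detected, while a few precursors held most of the summed TPM of the 22 precursors in the set. At least 3 counts were present in all 8 mice for 28 of 29 receptors and for 8 of 22 precursors. The median level was 3.52 TPM over receptors and 1.67 TPM over precursors, against 4.27 TPM over all genes with any count. Summed over the 22 precursors, TPM lay between 241 and 435 per mouse, which was between 12.96% and 45.9% of the *Sst* TPM of the same mouse. Only 4 precursors averaged over 10 TPM: *Gal* (galanin) with 86.8 ± 36.5 TPM, *Tac1* (substance P and neurokinin A) with 57.8 ± 26.1, *Adcyap1* (PACAP) with 57.3 ± 38.4 and *Tac2* (neurokinin B) with 47.5 ± 30.6 (SD, n = 8 mice, both sexes). The next precursors were *Trh*, *Nts*, *Cck* and *Pmch*, at means between 5.51 and 8.03 TPM, but the mean of *Pmch* rests on female 4, with 40.8 TPM, and no other mouse had more than 1.25 TPM. Among receptors, 7 averaged over 10 TPM. *Adcyap1r1*, the PACAP receptor, was highest and least variable at 87.3 ± 9.64 TPM, followed by the prolactin receptor *Prlr* at 53.4 ± 16.3, *Ntsr2* at 25.5 ± 8.47, *Calcr* at 23.4 ± 7.51, *Calcrl* at 18.9 ± 8.40, *Tacr1* at 18.3 ± 10.1 and *Crhr1* at 14.6 ± 4.65 (SD, n = 8).

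**Figure D1:**
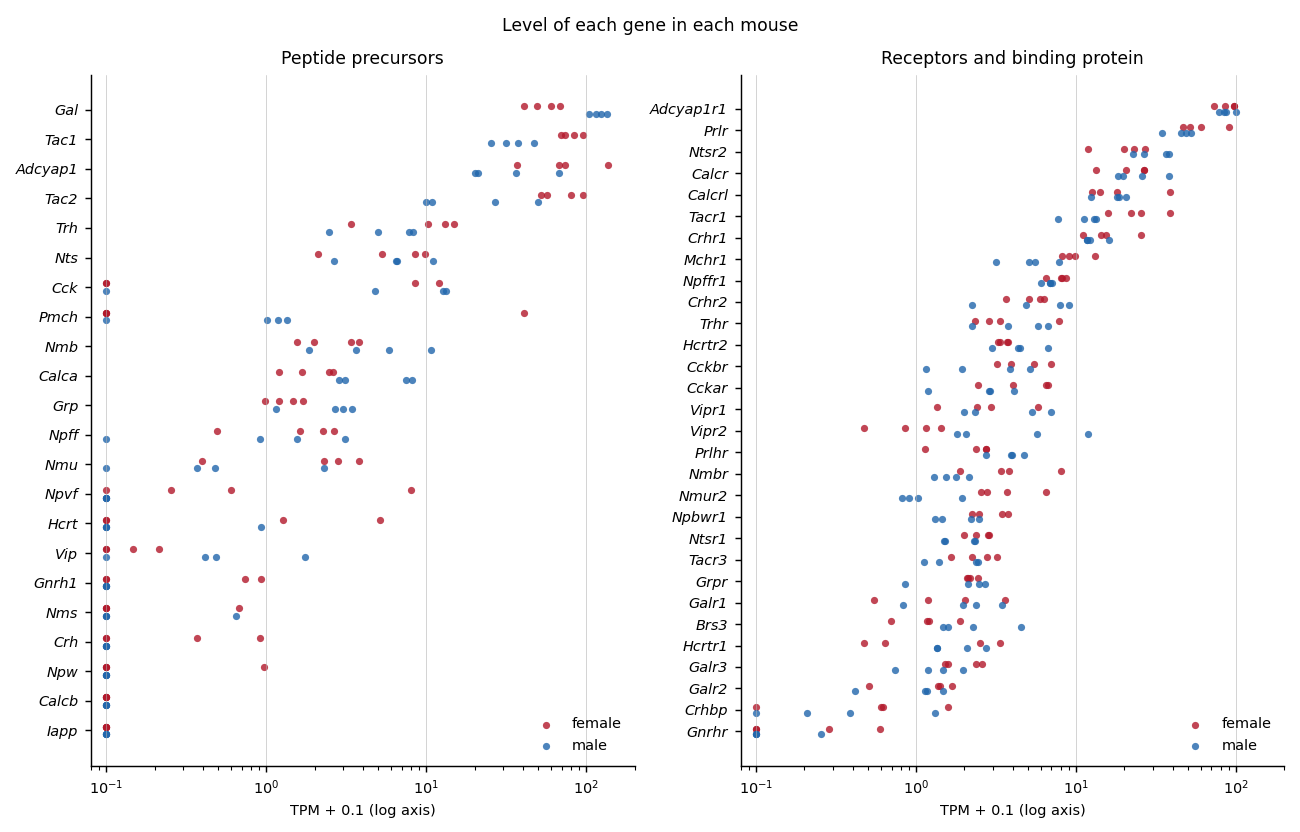
Level of each of the 52 genes in each mouse, as TPM plus 0.1 on a log axis, with precursors on the left, receptors and the binding protein on the right, and genes ordered by their mean over the 8 mice. Points are mice (red, female; blue, male), and points at the left edge are mice with 0 TPM, which are many among the lower precursors and few among the receptors.

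Precursor and receptor levels ran apart in several families. Galanin and tachykinin precursors exceeded the summed level of their receptors, with 86.8 against 4.51 TPM for galanin and 105 against 20.3 TPM for the tachykinins. The reverse held for corticotropin-releasing hormone (0.135 TPM of *Crh* against 20.1 TPM of receptors), the calcitonin family (3.57 against 42.4 TPM) and neurotensin (6.43 against 27.6 TPM). The *Crh* value rests on 6 counts in all, 5 of them in female 1, and is given only as near the floor. Most of the neurotensin receptor sum was *Ntsr2* (25.5 TPM), also known as a gene of astrocytes, and 38.6% of *Ntsr2* counts fell on protein-coding transcripts. Both sides were high for VIP and PACAP, with 57.6 TPM of precursors and 93.9 TPM of receptors. For gonadotropin-releasing hormone neither side had enough counts for a level. These sums are descriptions, since a level of message is not a level of peptide or of receptor at the membrane.

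**Figure D2:**
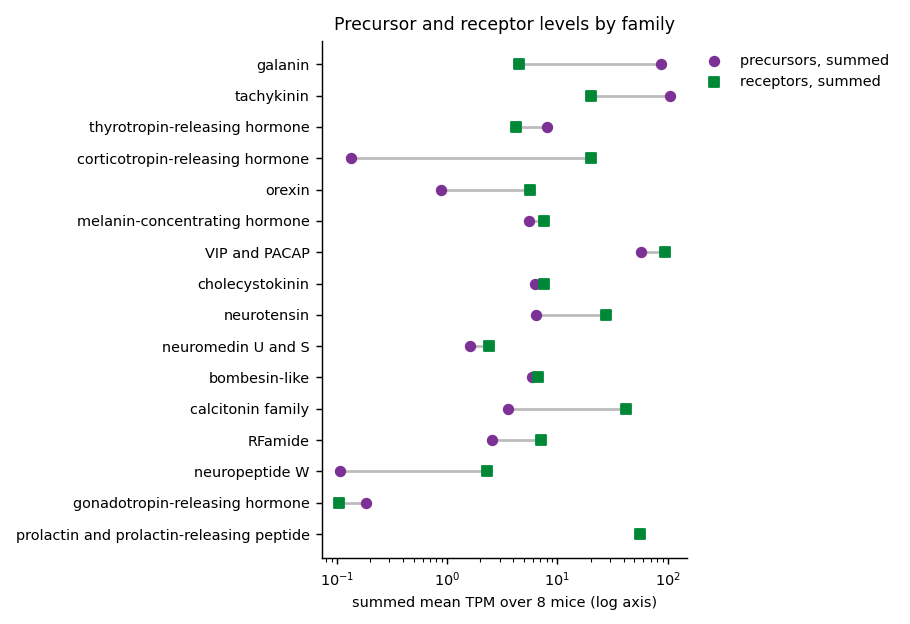
Summed mean TPM over the 8 mice for the precursors (circles) and the receptors (squares) of each of the 16 families, on a log axis, with a line joining the pair. Circles lie well to the right of squares for galanin and the tachykinins. No order is read for gonadotropin-releasing hormone, where neither gene had more than 3 counts in a mouse, or for melanin-concentrating hormone, whose circle rests on female 4. The prolactin and prolactin-releasing peptide family has receptors alone among these genes.

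To ask whether these genes differed between females and males, all 15194 genes with enough counts were fitted together. Of the 52 genes, 35 were among them (7 precursors and 28 receptors), which leaves out 15 precursors, *Gnrhr* and *Crhbp* for low counts. *Gal* alone passed an adjusted p of 0.05 (quasi-likelihood test of edgeR, adjusted by the Benjamini-Hochberg method, hereafter the edgeR adjusted p), and it was higher in males. Among all genes tested, 0.158% were called, 0.0461% higher in males and 0.112% higher in females. DESeq2's Wald test called *Gal* and also *Tac1*, *Tac2*, *Tacr1*, *Nmur2* and *Prlr*, these 5 higher in females, where it called 7.86% of the 13392 genes to which it gave an adjusted p, 4.38% higher in females and 3.48% higher in males. It gave no adjusted p for 7 of the 35 genes. At an unadjusted p under 0.05 in edgeR there were 11 genes, 7 toward females (*Nmbr* and *Mchr1* beside those 5) and 4 toward males (*Gal*, *Vipr2*, *Brs3* and *Prlhr*), where 20.5% of all genes passed the same threshold, 9.86% toward females and 10.7% toward males. The sexes did not overlap in CPM for 7 of the 35: *Tac1*, *Tacr1*, *Mchr1*, *Nmur2* and *Prlr*, higher in every female, and *Gal* and *Prlhr*, higher in every male. Of all genes tested, 10.4% were separated, 6.48% toward females and 3.94% toward males. The median log2 fold change of the 35, female over male, was 0.27, with 21 above 0 and 14 below, against -0.0043 over all genes, of which 49.4% were above 0. The 8 neuron markers had a median of 0.29, with all 8 above 0, and their part in the values of the 35 was not tested.

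**Figure D3:**
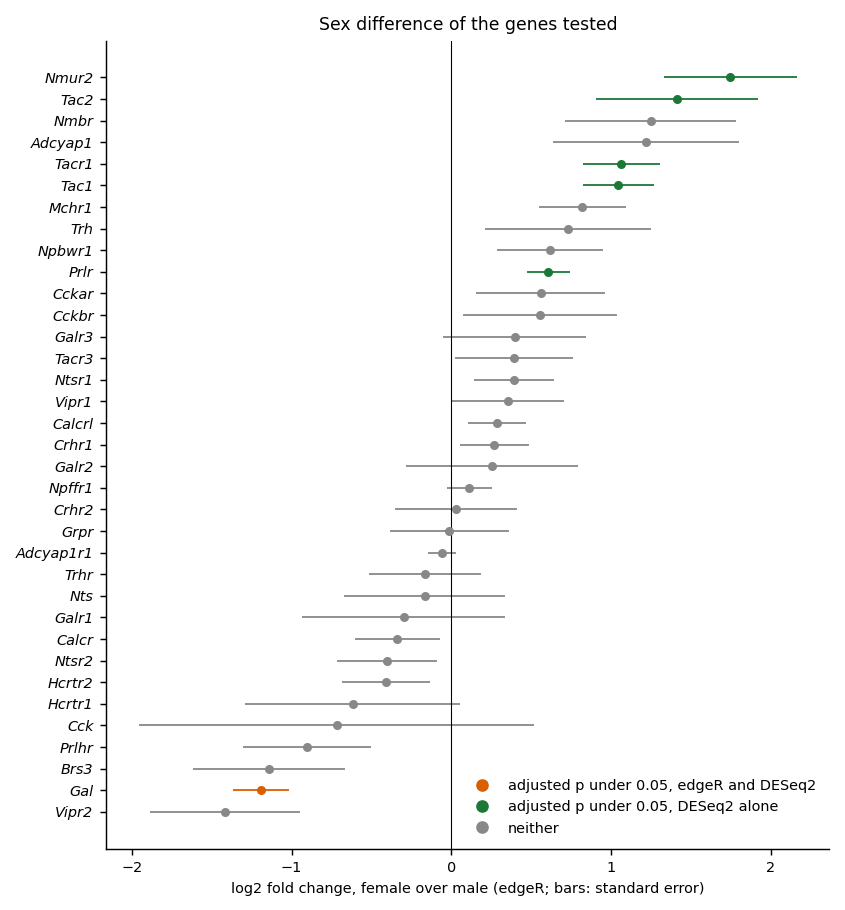
Log2 fold change of the 35 genes tested, female over male, with its standard error from edgeR (n = 4 mice per sex). *Gal*, in orange, is the gene past an adjusted p of 0.05 in edgeR as well as in DESeq2, green marks the 5 genes that DESeq2 alone called, and grey marks the others. Values run from -1.42 for *Vipr2* to 1.75 for *Nmur2*.

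Galanin is an amidated peptide released by many hypothalamic neurons, acting mainly through inhibitory receptors and known to increase feeding. *Gal* (ENSMUSG00000024907.7) spans bases 3409915 to 3414544 of chromosome 19 (mm10, - strand). Its counts divide between a pair of coding transcripts, *Gal-201* with 62.2% and *Gal-202* with 37.8% of the gene's counts over all mice, and both contain the same stretch coding for the mature peptide. That stretch, of 29 codons with its flanks, spans 2 coding exons (chr19:3411592-3413340, intron left out), and is shown because it is what the counted message encodes. Capitals mark the pairs of basic codons at which the precursor is cut and the glycine codon used for amidation.
galanin: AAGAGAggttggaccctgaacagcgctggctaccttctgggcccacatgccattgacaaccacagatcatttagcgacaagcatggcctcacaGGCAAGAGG

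*Gal* CPM was 13.1, 19.6, 14.0 and 20.4 in females 1 to 4, whereas it was 40.3, 44.6, 34.4 and 33.5 in males 1 to 4. Every male lay above every female, and the nearest pair, female 4 and male 4, were 20.4 and 33.5 CPM. The log2 fold change, female over male, was -1.19 (standard error 0.175, edgeR adjusted p = 0.0449). A 2-sided exact permutation test on log2 CPM gave p = 0.0286, the smallest that 4 mice against 4 allow. Separation of the sexes fixes this value, so it adds nothing to the separation itself, which 10.4% of all genes tested also had. *Gal* was already known to be called when this test was chosen. The edgeR call rested close to the threshold, as it was lost without any single mouse other than female 1 or male 1. The edgeR adjusted p reached 0.139 without male 2, although the log2 fold change stayed between -1.31 and -1.10. The fits without female 1 and without male 1 called 415 and 411 genes in all, against 24 with all 8 mice. Leaving out any other mouse gave between 8 and 13 genes. Among these fits the *Gal* call was thus kept only where many more genes were called. Transcript use differed between mice within both sexes, with *Gal-201* at 40.6% to 67.6% of counts in females and 52.3% to 76.8% in males. Summed TPM of 7 arcuate nucleus neuron markers was 403 to 1112 in females and 896 to 1742 in males. Among them *Pomc* was higher in every male, between 63.1 and 117 CPM against 20.3 to 58.7 CPM in females, with a fitted log2 fold change of -1.11 (standard error 0.347, edgeR adjusted p = 0.146, DESeq2 adjusted p = 0.0113), and *Npy* had -1.15 (standard error 0.491) with overlap of the sexes. Of the 6 arcuate markers tested, 4 had log2 fold changes below 0 and 2 above, *Ghrh* (0.63, standard error 0.270) and *Th* (0.30, standard error 0.191). The part of these markers in the *Gal* result was not tested.

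The receptors of galanin were far lower than the peptide. *Galr1*, an inhibitory receptor, averaged 1.89 ± 1.13 TPM (SD, n = 8), *Galr3* 1.57 ± 0.606 and *Galr2*, which couples to calcium release, 1.04 ± 0.453. None of the 3 was called between the sexes by either test, and their log2 fold changes were -0.30 (standard error 0.636), 0.40 (0.450) and 0.26 (0.539). *Galr1* ranged between 0.641 and 5.58 CPM within the females alone. *Galr3* shares 29.2% of its exon bases with *Gcat* on the same strand, so its counts are uncertain.

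Tachykinins are excitatory peptides: *Tac1* encodes substance P and neurokinin A, which prefer the receptors encoded by *Tacr1* and *Tacr2*, and *Tac2* encodes neurokinin B, which prefers the one encoded by *Tacr3* and is known for its place in the control of gonadotropin release. *Tac1* lies on chromosome 6, from 7554879 to 7565834 on the + strand, and *Tac2* on chromosome 10, from 127724478 to 127731768 on the + strand. Nearly all *Tac1* counts fell on *Tac1-203* (50.2%) and *Tac1-205* (49.3%), both of which contain the stretches for substance P and for neurokinin A. The 3 peptide stretches are shown side by side because the peptides share a carboxyl-terminal sequence, with capitals as for galanin (chr6:7556729-7556773 for substance P, chr6:7557740-7559139 for neurokinin A and chr10:127728473-127729154 for neurokinin B, both neurokinin stretches split over 2 exons). In substance P the second of the leading capital codons also codes for the first residue of the peptide.
substance P: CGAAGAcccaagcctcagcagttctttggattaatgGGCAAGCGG
neurokinin A: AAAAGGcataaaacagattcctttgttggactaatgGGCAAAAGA
neurokinin B: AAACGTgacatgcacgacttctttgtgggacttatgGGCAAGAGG

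Of 45 bases, substance P and neurokinin A have 26 in common, substance P and neurokinin B 25, and neurokinin A and neurokinin B 30. Over the last 24 bases the identical positions numbered 18, 18 and 20.

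*Tac1* ran opposite to *Gal*. Its CPM was 27.5, 34.8, 26.4 and 36.1 in females 1 to 4, but 10.3, 21.3, 16 and 12.8 in males 1 to 4. The sexes did not overlap, with female 3 at 26.4 as the lowest female and male 2 at 21.3 as the highest male. The log2 fold change was 1.05 (standard error 0.222), with an edgeR adjusted p of 0.0797 and a DESeq2 (Wald test) adjusted p of 0.00109. *Tac2* CPM was 24.2, 29.5, 13.2 and 16.6 in females and 15.6, 3.39, 2.95 and 9.19 in males, so that male 1 lay within the female range. Its log2 fold change was 1.41 (standard error 0.510), with an edgeR adjusted p of 0.185 and a DESeq2 adjusted p of 0.0387. Both genes were measured in the same libraries, so the ratio of *Gal* to *Tac1* counts does not depend on the scaling between mice: it was 0.476, 0.561, 0.528 and 0.566 in females 1 to 4, compared with 3.93, 2.10, 2.15 and 2.61 in males 1 to 4. *Gal* counts were thus below *Tac1* counts in each female and above them in each male, a description given without a test because both genes had been seen to differ.

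*Tacr1* (chromosome 6, 82402334 to 82560104, + strand), which encodes the substance P receptor, moved in the same direction as its ligand gene. Its CPM was 43.3, 65.4, 94.2 and 67.6 in females and 36.5, 33.3, 37.5 and 21.9 in males. Female 3 was highest, and female 1 was close to the highest male, without overlap. The log2 fold change was 1.07 (standard error 0.240), with an edgeR adjusted p of 0.0844 and a DESeq2 (Wald test) adjusted p of 0.000864. Without female 1 the edgeR adjusted p passed the threshold, at 0.0355, in a fit that called 415 of 15544 genes. With all 8 mice 24 of 15194 genes were called. *Tacr3* was low, at 2.04 ± 0.703 TPM (SD, n = 8), and its log2 fold change of 0.39 (standard error 0.371) was not called by either test. *Tacr2*, which is outside the 52 genes, had at most 3 counts in a mouse. Summed TPM of 7 ventromedial nucleus neuron markers was 306 to 444 in females and 208 to 301 in males, most of it *Dlk1* (245 to 404 and 163 to 283 TPM, log2 fold change 0.30). Of the same list *Fezf1* was at 23.2, 24.1, 23.8 and 51.6 CPM in females and 3.18, 3.48, 3.66 and 22.9 CPM in males, a log2 fold change of 1.92 (standard error 0.654), and was not called by edgeR or DESeq2. Of the 7 markers, 5 had log2 fold changes above 0 and 2 below, *Nr5a1* (-0.44, standard error 0.591) and *Fezf2* (-1.11, standard error 1.07). The part of these markers and of the neuron markers in the tachykinin values was not tested.

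**Figure D4:**
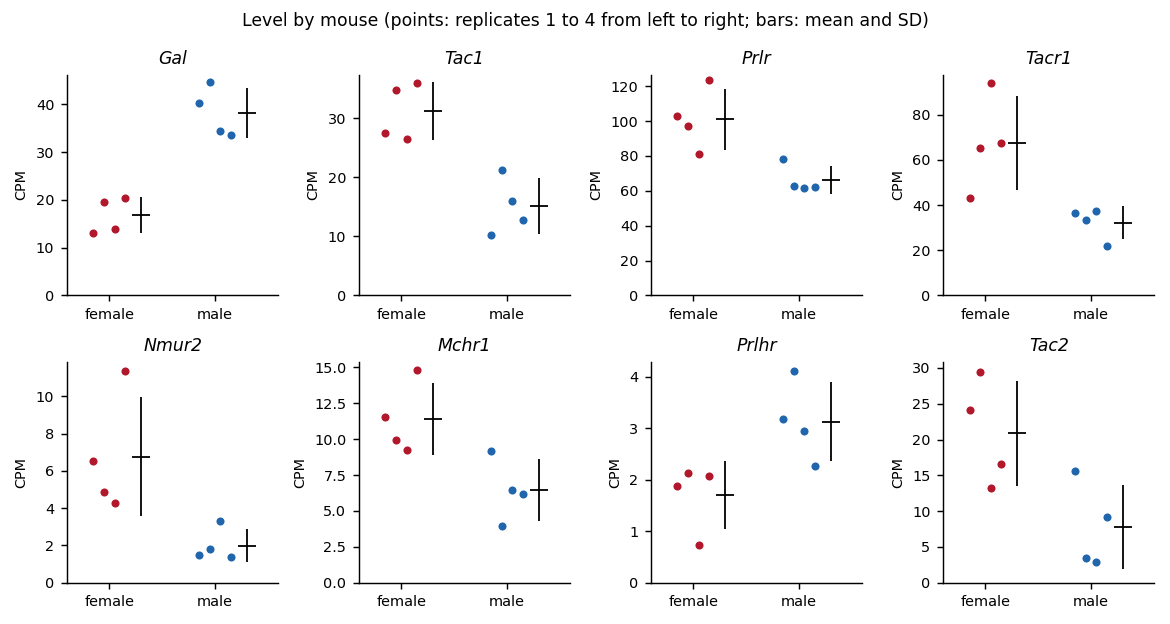
CPM of 8 genes in each mouse, with replicates 1 to 4 of each sex from left to right as red (female) and blue (male) points, and the mean and SD of the sex beside them; each axis starts at 0. *Gal* and *Prlhr* are higher in every male, *Tac1*, *Prlr*, *Tacr1*, *Nmur2* and *Mchr1* in every female, and *Tac2* overlaps through male 1.

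**Figure D5:**
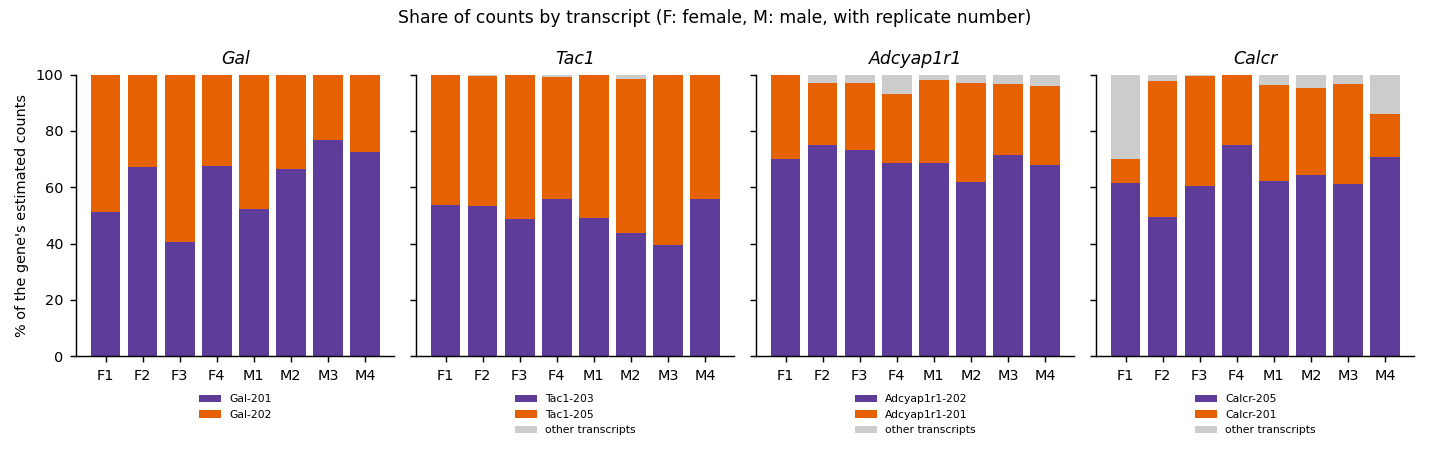
Share of each gene's estimated counts by transcript in each mouse (F, female; M, male), for *Gal*, *Tac1*, *Adcyap1r1* and *Calcr*. *Adcyap1r1-202* holds the larger share in all 8 mice, *Gal-201* in all but female 3, and which *Tac1* transcript is larger changes from mouse to mouse in both sexes.

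The upstream sequences of *Gal* and *Tac1* are shown because these genes lay on opposite sides of the sex comparison. They are RefSeq's windows on GRCm38.p6, 250 bases before the start for *Gal* (chr19:3414545-3414794, - strand) and, for *Tac1*, the 68 bases (chr6:7554811-7554878, + strand) that precede every GENCODE transcript of the gene, with matches to the searched motifs in capitals. Because the stretches differ in length, their capitals are not compared.
Gal upstream: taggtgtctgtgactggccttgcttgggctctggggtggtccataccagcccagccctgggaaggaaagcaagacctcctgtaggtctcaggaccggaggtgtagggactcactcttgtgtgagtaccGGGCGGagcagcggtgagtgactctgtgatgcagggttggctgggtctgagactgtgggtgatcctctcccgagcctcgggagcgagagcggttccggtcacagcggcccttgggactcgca
Tac1 upstream: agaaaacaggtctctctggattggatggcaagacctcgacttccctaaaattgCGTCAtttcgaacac

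The motifs searched on both strands, in windows reaching 50 bases past the start, were the cAMP response element TGACGTCA and its shorter core TGACG, which it contains, the nuclear receptor core AGGTCA, the estrogen response element (GGTCA and TGACC, 3 bases apart), which can overlap that core, the TATA box TATAAA and the GC box GGGCGG. RefSeq windows were matched for 41 of the 52 genes, 47 windows in all. TGACG was in 58.8% of the 17 precursor windows, including those of *Gal*, *Tac1*, *Adcyap1*, *Trh*, *Nts*, *Cck* and *Vip*, and in 34.5% of the 29 receptor windows, against 20.8% of all 32851 windows of the same length. TGACGTCA and the estrogen response element were in none of the 47, against 1.79% and 0.0700% of all windows. With shares this low, 47 windows are too few to show a lack, so nothing is read from their absence. The shares of the other motifs over the 47 windows were 14.9% for AGGTCA (16.3% of all windows), 21.3% for TATAAA (13.6%) and 34.0% for GGGCGG (35.7%). The full windows of *Gal* and *Tac1* both held TGACG and GGGCGG. The TGACG of *Gal*, at base 20 past the start, and the GGGCGG of *Tac1*, at base -107, lie outside the printed stretches. A match describes the letters of the window and is not evidence of binding.

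PACAP, encoded by *Adcyap1*, is a stimulatory peptide of hypothalamic excitatory neurons, and *Adcyap1r1* encodes its preferred receptor, while *Vipr1* and *Vipr2* encode receptors that VIP and PACAP share. *Adcyap1* (chromosome 17, 93199017 to 93206537, + strand) contains the stretch for the peptide within 1 coding exon (chr17:93203984-93204079), shown for its 27-codon form with capitals as above.
PACAP: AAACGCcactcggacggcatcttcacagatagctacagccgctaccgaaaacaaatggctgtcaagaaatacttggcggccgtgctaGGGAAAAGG

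*Adcyap1* CPM was 26.2, 33.8, 14.5 and 80.7 in females and 7.17, 10.1, 16.5 and 33.4 in males. Female 4 and male 4 were the highest of their sex, and the sexes overlapped. The log2 fold change of 1.22 (standard error 0.584) had an edgeR adjusted p of 0.269 and a DESeq2 (Wald test) adjusted p of 0.277. It fell to 0.55 without female 4 and was 1.78 without male 4. Summed TPM of 3 glutamate neuron markers, nearly all of it *Slc17a6*, was also highest in female 4 (154) among females and in male 4 (99.5) among males, and its part in these values was not tested. The *Adcyap1* level depends on the transcript model, since *Adcyap1-203*, annotated as a retained intron with no coding sequence, held 49.1% of the counts and the 318-base *Adcyap1-205* held 10.6% of counts but 35.8 of the 57.3 TPM. *Adcyap1r1* CPM, in contrast, lay between 184 and 239.9 in all 8 mice, and its log2 fold change of -0.06 (standard error 0.0875) made it the receptor measured most precisely between the sexes. It fell on *Adcyap1r1-202* (69.9% of counts, 1404 coding bases) and *Adcyap1r1-201* (27.0%, 1488 coding bases). *Vip* had 15 counts or fewer in each mouse and was not tested. *Vipr2* was 0.666, 1.68, 0.592 and 0.450 CPM in females and 1.55, 2.47, 2.23 and 2.39 CPM in males, overlapping only through female 2 and male 1. Its log2 fold change was -1.42 (standard error 0.468, edgeR adjusted p = 0.162). *Vipr1* averaged 3.52 ± 2.07 TPM and was not called (log2 fold change 0.35, standard error 0.354).

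Prolactin acts on hypothalamic neurons through *Prlr*, a cytokine-type receptor, and *Prlhr* encodes the receptor of prolactin-releasing peptide, a peptide that reduces feeding. *Prlr* (chromosome 15, 10177238 to 10349180, + strand) had 103, 97.0, 81.0 and 123 CPM in females and 78.2, 63.1, 61.8 and 62.3 CPM in males. Male 1 lay just under the lowest female, and the other males were close to each other. The log2 fold change was 0.61 (standard error 0.135), with an edgeR adjusted p of 0.0831 and a DESeq2 (Wald test) adjusted p of 0.00299. Without male 1 the edgeR value was 0.0466. On the TPM scale the sexes overlapped, between 46.6 and 89.4 in females and between 34.1 and 52.3 in males. The neuron markers that DESeq2 called had log2 fold changes between 0.43 and 0.68, and their part in the *Prlr* values was not tested. The 564-base *Prlr-203* held 9.45% of the counts but 33.6 of the 53.4 TPM, while *Prlr-202*, with 1824 coding bases, held 73.2% of the counts. *Prlhr* was 1.89, 2.14, 0.740 and 2.07 CPM in females and 3.18, 4.12, 2.95 and 2.27 CPM in males, without overlap, and its log2 fold change of -0.90 (standard error 0.402) had an edgeR adjusted p of 0.242.

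Neuromedin U and neuromedin S are peptides that reduce feeding and act in the brain through the receptor encoded by *Nmur2*. *Nmur2* (chromosome 11, 56024987 to 56041010, - strand) had 6.55, 4.89, 4.29 and 11.3 CPM in females and 1.47, 1.83, 3.31 and 1.39 CPM in males. The sexes did not overlap, and female 4 was well above the other females. Its log2 fold change, 1.75 (standard error 0.414), was the highest among the 35 genes tested, with an edgeR adjusted p of 0.0929 and a DESeq2 (Wald test) adjusted p of 0.00530. These values rest on 32 to 126 counts per female and 11 to 37 per male. The ligand genes were barely present in the same cells, with at most 15 counts of *Nmu* and at most 3 of *Nms* in a mouse.

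The bombesin-like family comprises *Grp* and *Nmb*, their receptors *Grpr* and *Nmbr*, and the orphan receptor *Brs3*, known for its part in energy balance. *Grp* and *Nmb* had at most 20 counts in a mouse and were not tested. *Nmbr* was 1.22, 1.68, 1.92 and 4.95 CPM in females and 0.733, 1.19, 0.626 and 1.64 CPM in males, while *Brs3*, which is on the X chromosome, was 0.888, 1.68, 1.48 and 2.61 CPM in females and 6.76, 3.48, 2.06 and 2.39 CPM in males. The pair had log2 fold changes of opposite sign, 1.25 (standard error 0.536) and -1.14 (standard error 0.477), with overlap between the sexes and edgeR adjusted p-values of 0.234 and 0.226. *Grpr*, also X-linked, was at 2.79 ± 0.351 CPM in females, and the male mean was 2.78 ± 1.16 CPM (SD, n = 4 per sex). *Nmbr* shares 15.6% of its exon bases with an antisense gene, and the strand setting of the counting is not given in the sources used here.

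Melanin-concentrating hormone, the product of *Pmch*, and the orexins, the products of *Hcrt*, come from neurons of the lateral hypothalamus beside the TN, and both promote feeding or arousal. *Pmch* was absent or nearly so in all mice but one, with 147 counts (13.2 CPM) in female 4, none in the other females and at most 5 in a male. *Pmch* shares 58.1% of its exon bases with the antisense gene *Parpbp*, which had 11 counts in female 4 and between 0 and 16 in all mice. The strand setting of the counting is not given, and estimated counts divide shared reads between transcripts. The counts of *Pmch* are therefore uncertain, and the part of *Parpbp* in them was not tested. *Hcrt* had at most 8 counts in a mouse, and 3 in female 4. The receptor *Mchr1* (chromosome 15, 81235499 to 81238964, + strand) was 11.5, 9.93, 9.28 and 14.8 CPM in females and 9.20, 3.94, 6.43 and 6.17 CPM in males. Every female was above every male, by a narrow margin between female 3 and male 1, and the log2 fold change of 0.82 (standard error 0.271) had an edgeR adjusted p of 0.161 and a DESeq2 (Wald test) adjusted p of 0.0747. The orexin receptors *Hcrtr1* and *Hcrtr2* averaged 1.71 ± 1.03 and 3.95 ± 1.16 TPM (SD, n = 8), had log2 fold changes of -0.62 (standard error 0.673) and -0.41 (standard error 0.275), and were not called.

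Among the pituitary-driving precursors in the set, *Trh* (thyrotropin-releasing hormone) was the one with clear counts. *Trh* CPM was 7.33, 9.32, 2.02 and 10.2 in females and 5.54, 6.23, 3.49 and 1.76 in males, with overlap through female 3, and its log2 fold change of 0.73 (standard error 0.520) had an edgeR adjusted p of 0.448. Its receptor *Trhr* averaged 4.23 ± 2.11 TPM and had a log2 fold change of -0.16 (standard error 0.350). *Crh*, the stress peptide, had 6 counts in all, 5 of them in female 1, while its receptors were present in each mouse: *Crhr1* between 14.1 and 29.5 CPM and *Crhr2*, which also binds the urocortins, between 2.14 and 8.31 CPM. Neither receptor was called, with log2 fold changes of 0.27 (standard error 0.216) and 0.03 (standard error 0.383). The binding protein gene *Crhbp* had between 0 and 13 counts in a mouse. *Gnrh1* had 2 counts in all and its receptor gene *Gnrhr* 6, so no level of either can be given.

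Cholecystokinin and neurotensin both reduce food intake and are made by scattered hypothalamic neurons. *Cck* was unevenly detected, at 0, 2.29, 2.52 and 0 CPM in females and 0.977, 3.12, 3.84 and 0 CPM in males, and its log2 fold change of -0.72 had a standard error of 1.24. Its receptors *Cckar* and *Cckbr* were at 3.72 ± 1.92 and 3.84 ± 1.88 TPM (SD, n = 8), with overlapping sexes and log2 fold changes of 0.56 (standard errors 0.405 and 0.483). *Nts* was 3.33, 1.22, 4.64 and 5.85 CPM in females and 7.003, 1.74, 4.11 and 4.28 CPM in males. The direction of its difference, -0.17 on the log2 scale (standard error 0.504), turned to 0.18 without male 1 and to 0.10 without female 2. *Ntsr2* had 19.3, 28.9, 11.2 and 28.9 CPM in females and 20.5, 38.3, 23.1 and 34.1 CPM in males, and the log2 fold change was -0.40 (standard error 0.314, edgeR adjusted p = 0.492). *Ntsr2* is also known as a gene of astrocytes, whose 5 markers summed to between 70.5 and 241 TPM in females and between 196 and 409 TPM in males, lowest in female 3 and highest in male 2 like *Ntsr2* CPM itself, and their part in its level was not tested. A retained-intron transcript with no coding sequence, *Ntsr2-205*, held 61.4% of its counts. *Ntsr1*, the high-affinity receptor, was lower, at 2.10 ± 0.513 TPM, and was not called.

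The calcitonin family was represented by its receptors. *Calcr* binds calcitonin and, together with receptor activity-modifying proteins (RAMPs), amylin, and *Calcrl* with a RAMP forms receptors for CGRP and adrenomedullin. *Calcr* CPM was 49.8, 43.5, 46.5 and 25.6 in females and 77.5, 39.2, 38.5 and 53.9 in males, and *Calcrl* CPM was 34.1, 36.7, 53.5 and 35.5 in females and 33.4, 29.0, 41.6 and 27.3 in males. The sexes overlapped for both, with log2 fold changes of -0.34 (standard error 0.266) and 0.29 (standard error 0.183) and edgeR adjusted p-values of 0.494 and 0.401. *Calcr-205*, with 1488 coding bases, held 62.7% of *Calcr* counts and *Calcr-201*, with 1599, held 30.8%. The ligand genes were low or absent: *Calca* had between 3 and 23 counts in a mouse, and *Calcb* and *Iapp* (amylin) had none in any mouse, which allows a level of up to 0.0343 CPM over the 8 libraries.

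Of the RFamide peptides, *Npff* had at most 12 counts in a mouse, and *Npvf*, whose peptide inhibits gonadotropin release, had 20 counts in female 2 and at most 2 elsewhere. Their receptor *Npffr1* was among the steadiest genes, between 11.3 and 15.7 CPM in all 8 mice, and differed by 0.11 on the log2 scale, female over male (standard error 0.141, edgeR adjusted p = 0.684). *Npw* (neuropeptide W) had 1 count in all, and its receptor *Npbwr1* averaged 2.31 ± 0.847 TPM (SD, n = 8). The log2 fold change of *Npbwr1* was 0.62 (standard error 0.331, edgeR adjusted p = 0.316).

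Other genes of the same pathways (further ligands, receptors, RAMPs, a sorting receptor and peptide-cleaving enzymes) were looked at as a list of 28. Of these, 11 had enough counts to be tested and none was called by edgeR or DESeq2. At an unadjusted p under 0.05 edgeR gave 1, *Trhde*, which encodes the enzyme that degrades TRH and had a log2 fold change of 0.62 (standard error 0.191, edgeR adjusted p = 0.145). Their median log2 fold change was 0.11, with 9 above 0 and 2 below. By level the first 5 were the endothelin-converting enzymes *Ece2* (58.8 ± 11.7 TPM) and *Ece1* (55.8 ± 6.70), the peptidase *Thop1* (47.9 ± 10.9), the neurotensin-binding sorting receptor *Sort1* (34.3 ± 4.18) and *Ramp1* (24.6 ± 7.22), which turns *Calcrl* into a CGRP receptor (SD, n = 8). *Ucn*, *Prl* and *Prlh* had no count in any mouse.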

How the data were processed

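RNA from tdTomato-positive, live, nucleated cells of the microdissected TN was sequenced single-end by the authors after a stranded total RNA library kit. Per the labels, kallisto 0.46.2 assigned reads to mouse transcripts (mm10). The authors deposited, for each transcript, estimated counts, which are not normalized, and TPM, each in 2 blocks per mouse whose meaning is not given in the sources used here. Estimated counts were summed over blocks and transcripts (GENCODE M21, 116728 transcripts, 35968 genes), and rounded. Transcripts without a match held 0.429% to 0.611% of counts. Gene TPM values are summed over transcripts and averaged over both blocks. Deposited lengths and effective lengths, in bases, served the length offset. The count model was fitted as planned to summed estimated counts, while the 2 TPM blocks per mouse had not been foreseen.

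The sexes were compared over 15194 genes with edgeR 4.0.16 in R 4.3.3 (TMM, its default low-count filter, quasi-likelihood test, sex as the only term, Benjamini-Hochberg adjusted p under 0.05). DESeq2 1.42.0 was an alternative, as were RLE normalization, other filters, each block alone, a length offset, a replicate block, autosomal genes alone, removal of *Lars2* and leaving out each mouse. Log2 CPM used a prior count of 2. Standard errors are those of the log2 fold change, taken from the F statistic. Exact permutation tests (scipy 1.17.1) were 2-sided. Python 3.11.15, numpy 2.4.6, pandas 2.3.3 and matplotlib 3.10.9 were used for joining and plotting.

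The members and the lists were chosen with earlier results of these data known. Full values are given for genes past a threshold in any test, genes whose sexes do not overlap, and the 6 precursors and 6 receptors with the highest TPM. The 41 genes with RefSeq promoter windows do not include *Calcb*, *Cckar*, *Crh*, *Galr1*, *Galr3*, *Gnrh1*, *Grp*, *Npbwr1*, *Npff*, *Npw* and *Trhr*. Protein sequences were not used here.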

Additional observations from a re-analysis of the deposited data

Results flagged for a closer look

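In a search for single mice that stood apart from the other 3 of their sex (Dixon's test at its critical value for 4), 6 of 87 groups were singled out, where chance gives about 1 in 20. *Pmch* was 13.2 CPM in female 4 and 0 in the other females. *Npvf* was 3.05 CPM in female 2, against 0.180 in the next female. *Prlr* was 78.2 CPM in male 1, against 63.1 in the next male, which is the mouse nearest to the females. *Calcrl* was 53.5 CPM in female 3, against 36.7 in the next female. *Crhr1* was 21.3 CPM in male 1, against 16.8 in the next male. *Galr2* was 0.458 CPM in female 2, the level of 3 counts in that library, against 1.26 in the next lowest female. The cause of these values was not tested.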

How the results depend on the processing

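Over 15 of the 52 genes and 18 alternatives, 249 results kept their direction and side of the threshold, 10 lost a call, 7 gained a call and 3 reversed direction. The 249 include *Prlhr* in DESeq2, which gave it no adjusted p. The 24 genes called in all became 1052 with DESeq2 and 1 with a replicate block. They became 13 with an offset for transcript length and 13 among autosomal genes alone. Without 1 mouse they became 415 (female 1 left out), 411 (male 1 left out) or between 8 and 13 (any other mouse left out). Of the 52 genes, 5 were called higher in females by DESeq2, against 0 in edgeR, and 0 to 1 without 1 mouse (*Tacr1* without female 1, *Prlr* without male 1). The 1 gene higher in males, *Gal*, was called in 9 of 19 fits. It was lost (0 called) with the replicate block (log2 fold change -1.21, adjusted p = 0.152 from edgeR), in the first block alone (-1.19, 0.0620), with the length offset (-1.21, 0.0669) and among autosomal genes alone (-1.19, 0.0575), and 0 to 1 were called without 1 mouse (-1.31 to -1.10). Replicate numbers are shared by the sexes, but same-numbered mice did not deviate together (correlations of -0.396, -0.156, 0.036 and 0.072), and not every mouse correlated best with its own number, so the block pairs mice by number only. *Adcyap1r1* turned to 0.0062 without male 1 (-0.10 to 0.0062 over the mice left out), and *Nts* to 0.10 without female 2 and 0.18 without male 1 (-0.44 to 0.18). Differences that were not called also moved widely without 1 mouse, for *Adcyap1* (0.55 to 1.78), *Trh* (0.48 to 1.06), *Calcr* (-0.46 to -0.08), *Calcrl* (0.10 to 0.42) and *Ntsr2* (-0.57 to -0.18). The count of 7 genes with separated sexes was 7 with RLE normalization and in the second block alone and 5 in the first block alone. These counts are of 35 genes tested in the main fit and with RLE, 31 in the second block and 27 in the first. The share of all genes separated was taken in the main fit alone, so the counts by block are not compared. The 6 precursors and 6 receptors with the highest TPM were also, all 12, those with the highest CPM. Low counts leave 17 of the 52 genes untested. Estimated counts divide reads between transcripts, so TPM of genes with short transcripts, such as *Prlr* and *Adcyap1*, is less certain than CPM.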
